A study of Mus musculus with 4 samples.

Results

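The CXC chemokines of colon macrophages were described by 7 genes: Cxcl1, Cxcl2 and Cxcl3, whose products attract neutrophils, Cxcl9 and Cxcl10, which are induced by interferons, and Cxcl16 and Pf4. They were chosen by name and are 7 of the 28692 genes in the table of unique molecular identifiers (UMIs, the count of captured RNA molecules). All 7 were present, and they were followed over the 4771 of 6954 cell barcodes that held at least 1000 UMIs. The cells came from the colon lamina propria of male C57/Bl6N mice and had been sorted for CD11b together with Ly6C or CD64, a gate for monocytes and macrophages. DEP mice (DEP 11 and DEP 13) had been gavaged with 12 µg of diesel exhaust particles in 200 µL PBS on 5 days a week for about 6 months. PBS mice (PBS 2 and PBS 3) had received the same volume of PBS without particles. Age was not given in the labels. Each mouse was 1 library, so every comparison rests on 2 mice against 2, or on 4 mice measured in both of 2 cell classes.

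Chemokines of the CXC family carry a pair of conserved cysteines separated by 1 residue and act on G protein-coupled receptors of leukocytes. Cxcl1, Cxcl2 and Cxcl3 act on Cxcr2, the main chemokine receptor of neutrophils, and are transcribed rapidly after NF-kB is activated by microbial products. Cxcl9 and Cxcl10 act on Cxcr3, which is carried by activated T cells and NK cells. Cxcl16 is made as a membrane-bound protein, is shed by Adam10 and Adam17, and acts on Cxcr6. Pf4 (platelet factor 4) is best known from platelet granules and is also transcribed by tissue macrophages. In the colon, Ly6C-high monocytes enter from blood and mature into resident macrophages, losing Ly6c2 and gaining the complement genes C1qa, C1qb and C1qc.

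All 7 are protein-coding genes. In the mm10 build (GENCODE), 6 of them lay on chromosome 5. Pf4 (chr5:90772435-90773383, plus strand), Cxcl3 (chr5:90786103-90789600, plus strand), Cxcl1 (chr5:90891241-90893115, plus strand) and Cxcl2 (chr5:90903871-90905938, plus strand) formed one group. Cxcl9 (chr5:92321347-92328079, minus strand) and Cxcl10 (chr5:92346638-92348889, minus strand) lay side by side further along. Cxcl16 was on chromosome 11 (chr11:70453983-70459984, minus strand).

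Promoter stretches are shown because Cxcl1, Cxcl2 and Cxcl3 tended to be found in the same barcodes, as given further on, and Cxcl10 is induced by interferons. RefSeq promoter windows of GRCm38.p6, from 250 bases before to 50 bases after the start of transcription, were matched for 6 of the 7 genes. A kB motif (GGG, any 2 bases, then TTTCC, on either strand, a binding motif of NF-kB) was found in 3 of these 6 windows, those of Cxcl1, Cxcl2 and Cxcl3, and in 1.63% of all 32851 windows. The stretches run 5′ to 3′ on the gene strand from base 110 to base 51 before the start, with the motif in capitals.
Cxcl1 (chr5:90891135-90891194): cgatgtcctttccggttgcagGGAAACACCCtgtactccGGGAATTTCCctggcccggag
Cxcl2 (chr5:90903789-90903848): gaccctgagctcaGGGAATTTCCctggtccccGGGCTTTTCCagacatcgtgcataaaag
Cxcl3 (chr5:90785991-90786050): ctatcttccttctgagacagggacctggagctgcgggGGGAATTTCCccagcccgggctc

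The motif GGGAATTTCC itself stood in all 3 stretches, 71, 97 and 73 bases before the start in Cxcl1, Cxcl2 and Cxcl3. An ISRE-like motif (GAAA, any 2 bases, then GAAA, on either strand, a motif of interferon-stimulated genes) was found in 1 of the 6 windows, that of Cxcl10, and in 3.44% of all windows. It is in capitals in the stretch of 60 bases that begins 240 bases before the Cxcl10 start, on the minus strand.
Cxcl10 (chr5:92349070-92349129): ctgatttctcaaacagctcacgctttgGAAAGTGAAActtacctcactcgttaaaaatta

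A GAS-like motif (TTC, any 3 bases, then GAA) was in none of the 6 windows and in 8.3% of all windows. These matches are descriptions of the letters in the windows, not of binding.

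The libraries held 4357153 to 10063287 UMIs in barcodes with at least 1000 UMIs, with medians per barcode of 5328.5 (DEP 11), 5794 (DEP 13), 7115.5 (PBS 2) and 5367.5 (PBS 3). DEP 13 had the fewest barcodes (675, against 1218 to 1582) and gives the least precise values. The 12 resident macrophage markers summed to 38780 to 48899 CPM (UMIs per 1000000 UMIs of the same mouse or class of a mouse) and the 10 monocyte markers to 2176 to 2606 CPM. Of the 8 neutrophil markers, S100a9 had 0 UMIs and the sum was 37.3 to 46.5 CPM, and the 8 platelet markers summed to 5.05 to 6.53 CPM with Gp1bb and Gp1ba at 0. The sort also carried lymphoid cells: 50 barcodes had T cell markers, 66 B cell markers and 72 plasma cell markers, 188 in all. These are not known as main sources of the 7 chemokines. Their UMIs for them are therefore given below as a level that can be reached through RNA free in the suspension or through mixed barcodes. The origin of these UMIs was not tested. Of the barcodes used, 39 had a sequence that occurred in more than 1 mouse.

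Cxcl2, Pf4 and Cxcl16 were the abundant members, and the other 4 were about an order of magnitude lower. A sum over cells does not tell a larger share of expressing cells from more RNA per cell, so level and share are both given. Because 3′ tags are counted, levels of different genes can be set side by side without correction for length, although capture can differ between transcripts.

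Values of the 4 mice are listed with DEP 11 first, then DEP 13, PBS 2 and PBS 3. Cxcl2 was at 821, 706, 884 and 784 CPM. Pf4 was at 681, 749, 703 and 767 CPM. Cxcl16 was at 632, 604, 659 and 514 CPM. These 3 genes were high in every mouse, and their ranges overlapped between DEP and PBS.

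Among the other 4 members, Cxcl10 was at 70.2, 54.4, 109 and 82.3 CPM. Cxcl1 was at 93.4, 69.8, 70.1 and 64.9 CPM. Cxcl9 was at 83.1, 28.2, 24.7 and 31.6 CPM. DEP 11 thus stood apart for Cxcl9, while the other 3 mice lay close together. Cxcl3 had the lowest mean, at 32.5, 48.4, 42.1 and 32.4 CPM. As means over the 4 mice, the order was Cxcl2 (799 ± 74.5 CPM, SD, n = 4), Pf4 (725 ± 40.0), Cxcl16 (602 ± 63.1), Cxcl10 (79.0 ± 23.1), Cxcl1 (74.5 ± 12.8), Cxcl9 (41.9 ± 27.6) and Cxcl3 (38.9 ± 7.84). In this order Cxcl2 and Pf4 differed by less than the SD of Cxcl2, as did Cxcl10 and Cxcl1 by less than either SD, and Cxcl9 and Cxcl3 by less than either SD. Pf4 was above Cxcl16, and Cxcl1 above Cxcl9, in all 4 mice.

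**Figure D1:**
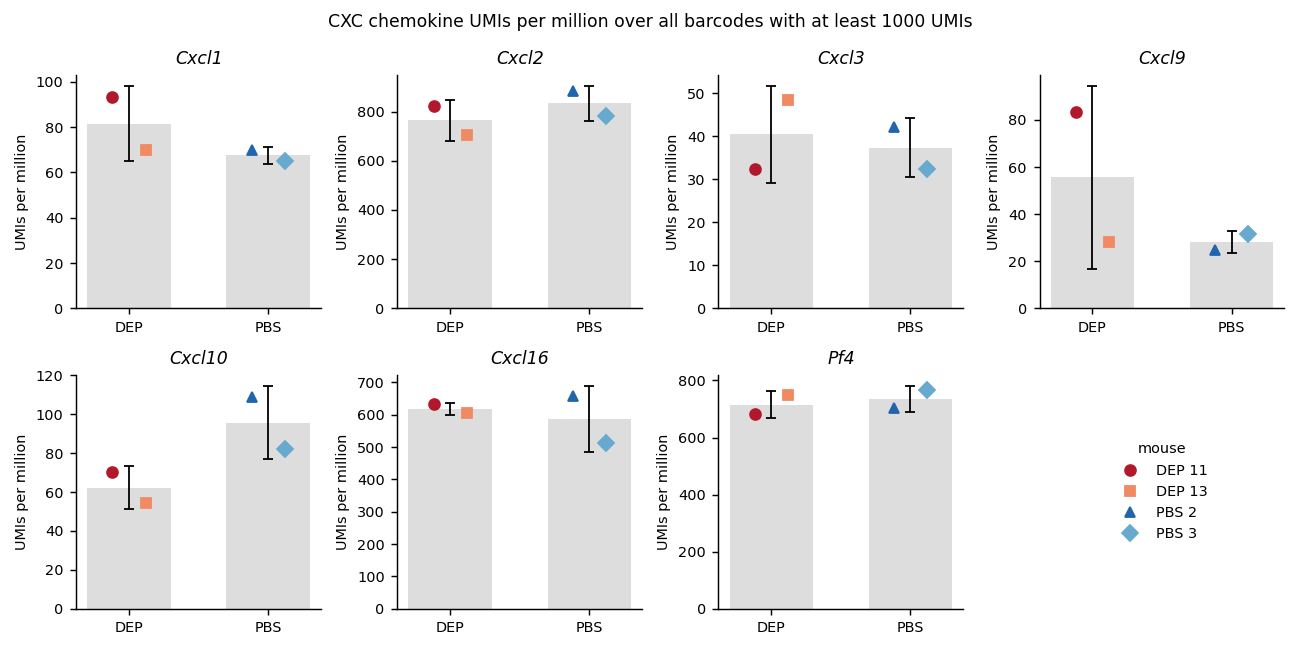
CPM (UMIs scaled to the same total) of the 7 CXC chemokine genes over all barcodes with at least 1000 UMIs, with bars at the mean of 2 mice, error bars of 1 SD and a point for each mouse. Only for Cxcl10 did the DEP mice (70.2 and 54.4) and the PBS mice (109 and 82.3) not overlap, and DEP 11 stood apart for Cxcl9 (83.1).

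The members differed in how their UMIs were spread over cells. Cxcl16 was the most evenly spread: 76.5% ± 4.87 (SD, n = 4 mice) of barcodes had a UMI, and the 5% of barcodes with the most Cxcl16 held 21.7% of its UMIs. Pf4 was detected in 69.0% ± 6.75 and Cxcl2 in 61.8% ± 10.3 of barcodes, with 37.3% and 46.8% of their UMIs in the top 5%. The other members were concentrated in few barcodes. The top 5% held 68.4% of Cxcl3, 75.1% of Cxcl10, 78.9% of Cxcl1 and 89.2% of Cxcl9 UMIs.

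Cxcl9 was thus the most concentrated member, and 1 barcode held up to 48 UMIs of it. At least 5 Cxcl9 UMIs were found in 29 barcodes of DEP 11, 4 of DEP 13, 9 of PBS 2 and 10 of PBS 3, and none of these 52 barcodes carried lymphoid markers. At least 5 Cxcl10 UMIs were found in 141 barcodes. The highest single barcode held 85 Cxcl10 UMIs, in PBS 2. A barcode of PBS 3 held 172 Cxcl2 UMIs, the highest value of any member.

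To ask how the chemokines change as monocytes become macrophages, barcodes were placed in classes by Ly6c2 and C1qa. The Ly6c2-high C1qa-low class (at least 2 Ly6c2 UMIs per 10000 UMIs and C1qa under 33.5 per 10000) held 1002 barcodes, and the Ly6c2-low C1qa-high class 2187. Outside these classes were 186 barcodes high for both genes and 1396 low for both. These classes are ranges of a level, not cell types: 216 barcodes lay within 10% of the C1qa limit and 887 had a Ly6c2 level from 1 up to 3 per 10000. The monocyte marker sum was 5891 to 7236 CPM in the first class and 567 to 888 CPM in the second. Summed UMIs of the classes were compared within the 4 mice (edgeR quasi-likelihood test with the mouse as a block, Benjamini-Hochberg adjustment over 10995 genes). Of all genes tested, 31.3% passed an adjusted p of 0.05, 14.8% as higher and 16.5% as lower in the C1qa-high class. Of the 7 members 6 passed, 5 as higher and 1 as lower.

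Pf4 was higher in the C1qa-high class in every mouse. In the Ly6c2-high C1qa-low class it was at 112, 99.9, 182 and 189 CPM. In the C1qa-high class it was at 1065, 1090, 987 and 1152 CPM. All C1qa-high values lay far above all Ly6c2-high values, and the log2 fold change was 2.78 ± 0.10 (SE, edgeR adjusted p = 5.38e-21). The 8 platelet and megakaryocyte markers, which do not include Pf4, summed to 1.80 to 3.89 CPM in the Ly6c2-high class and 6.62 to 8.92 CPM in the C1qa-high class, with Gp1ba and Gp1bb at 0.

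Cxcl16 was at 201, 127, 253 and 176 CPM in the Ly6c2-high C1qa-low class and at 913, 834, 859 and 735 CPM in the C1qa-high class for the same mice. It rose by 2.06 ± 0.09 (log2, edgeR adjusted p = 3.48e-19), again without overlap. A Cxcl16 UMI was found in 94.3% ± 1.08 of C1qa-high barcodes.

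The 3 neutrophil-attracting genes were also higher in the C1qa-high class. Cxcl1 was at 11.2, 16.6, 33.4 and 12.6 CPM in the Ly6c2-high C1qa-low class and at 151, 86.8, 95.4 and 98.0 CPM in the C1qa-high class, a log2 fold change of 2.42 ± 0.18 (edgeR adjusted p = 6.89e-13). Cxcl2 was at 327, 322, 605 and 350 CPM against 1127, 896, 993 and 967 CPM, a log2 fold change of 1.28 ± 0.09 (edgeR adjusted p = 5.38e-13). Cxcl3 was at 17.9, 24.2, 23.3 and 15.0 CPM against 43.2, 60.7, 46.3 and 41.4 CPM, a log2 fold change of 1.18 ± 0.14 (edgeR adjusted p = 4.25e-08). For each of the 3 genes the lowest C1qa-high mouse lay above the highest Ly6c2-high mouse. PBS 2 had the highest Cxcl1 and Cxcl2 of the Ly6c2-high class. In the same class of that mouse the 6 fibroblast markers summed to 113 CPM (1.80 to 3.73 CPM in the other mice) and the 17 immediate early and heat shock genes to 20362 CPM (12275 to 15679 CPM), and their part in these values was not tested.

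The interferon-induced pair did not share this course. Cxcl9 was at 25.4, 12.1, 13.9 and 65.9 CPM in the Ly6c2-high C1qa-low class and at 68.3, 28.5, 20.5 and 27.4 CPM in the C1qa-high class. Outside the classes, barcodes high for both Ly6c2 and C1qa held 281, 35.1, 45.8 and 34.3 CPM of Cxcl9. Barcodes low for both held 130, 36.5, 42.7 and 17.6 CPM. Between the classes, Cxcl9 was higher in the C1qa-high one in 3 mice and lower in PBS 3. The log2 fold change of 0.09 ± 0.25 did not pass the test (edgeR adjusted p = 0.843). Without PBS 3 the fold change was 1.09 (edgeR adjusted p = 1.09e-05). Cxcl10 was at 91.7, 39.3, 180 and 82.7 CPM against 62.5, 66.7, 100.5 and 91.7 CPM. It was lower in the C1qa-high class in DEP 11 and PBS 2 and higher in DEP 13 and PBS 3. The fitted log2 fold change of -0.38 ± 0.13 passed the test (edgeR adjusted p = 0.0189) but rested on PBS 2 and DEP 11: it was -0.09 (adjusted p = 0.724) without PBS 2 and -0.32 (adjusted p = 0.144) without DEP 11. DESeq2 gave an adjusted p of 0.561, and edgeR without the mouse as a block gave 0.377.

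**Figure D2:**
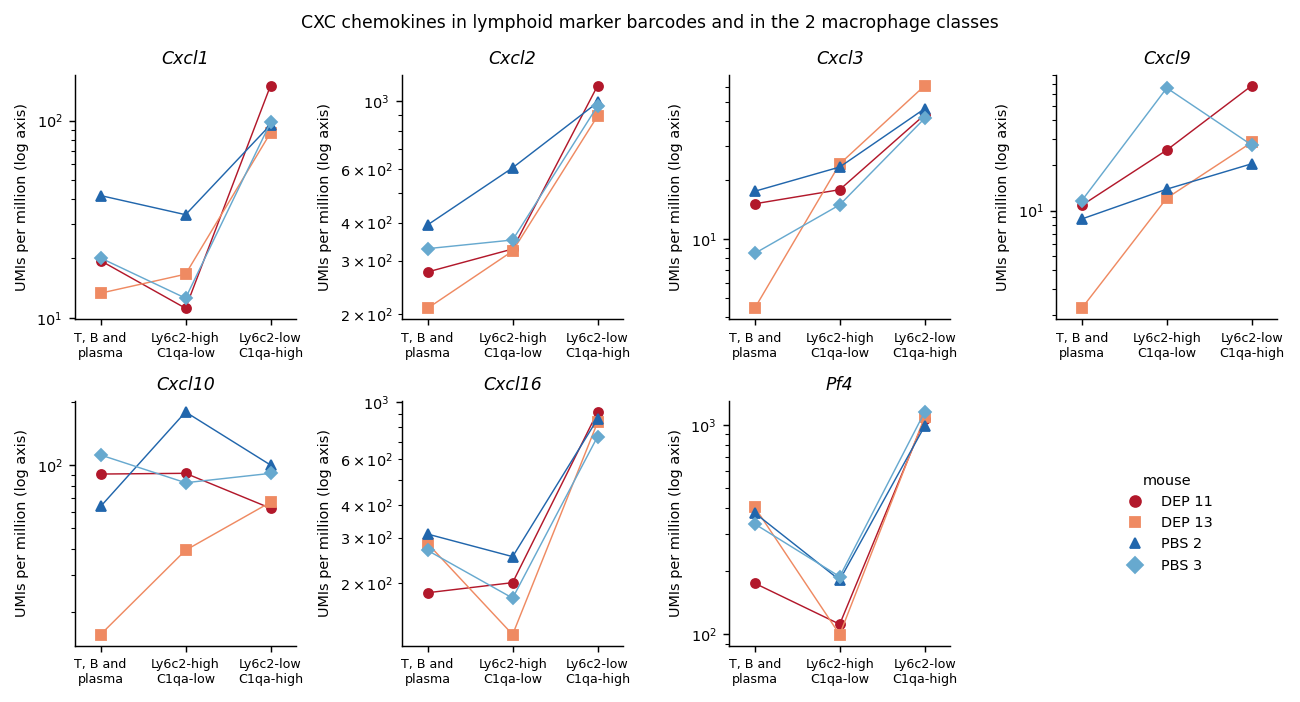
CPM (log axis) of each member in T, B and plasma cell marker barcodes, in Ly6c2-high C1qa-low barcodes and in Ly6c2-low C1qa-high barcodes, with a line for each of 4 mice. Pf4, Cxcl16, Cxcl1, Cxcl2 and Cxcl3 were highest in the C1qa-high class in every mouse, whereas the lines of Cxcl9 and Cxcl10 crossed.

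The Ly6c2-high C1qa-low values were set beside the levels in lymphoid marker barcodes. These are not a matched floor: they held more C1qa (1778 ± 464 CPM, against 675 to 1326 CPM in the Ly6c2-high class) and had a median of 8382.5 UMIs, against 4821. Pf4 was at 324 ± 103 CPM (SD, n = 4 mice) in T, B and plasma cell marker barcodes, above its 146 ± 46.2 CPM in the Ly6c2-high class in all 4 mice. Cxcl16 was at 262 ± 54.4 CPM there against 189 ± 52.7 CPM, and Cxcl1 at 23.7 ± 12.4 against 18.4 ± 10.2 CPM. The Ly6c2-high value was below the lymphoid one in 3 of 4 mice for both. For Pf4, Cxcl16 and Cxcl1 the Ly6c2-high level was thus not above that of these barcodes and is not read as expression, so their fold changes between the classes are differences of measured UMIs. Cxcl2 stood at 301 ± 78.2 CPM in the lymphoid marker barcodes and 401 ± 137 CPM in the Ly6c2-high class, higher in the latter in all 4 mice. Cxcl3 was at 11.4 ± 6.03 against 20.1 ± 4.42 CPM, Cxcl9 at 8.37 ± 4.27 against 29.3 ± 25.1 CPM and Cxcl10 at 70.6 ± 41.7 against 98.5 ± 59.0 CPM. Cxcl3 and Cxcl9 were higher in the Ly6c2-high class in all 4 mice, and Cxcl10 was not in PBS 3. The 1614 barcodes under 500 UMIs, which can hold free RNA, gave other levels. They held 909 ± 217 CPM of Cxcl2, 151 ± 27.4 of Cxcl3 and 147 ± 99.2 of Cxcl10, above the Ly6c2-high means, and 28.4 ± 15.6 CPM of Cxcl9. The Ly6c2-high levels of these 4 genes are therefore not read as above background either. In the C1qa-high class, Cxcl3 (47.9 CPM) and Cxcl10 (80.3 CPM) were also below the barcodes under 500 UMIs. Cxcl2 (996 CPM) and Cxcl9 (36.2 CPM) were above those barcodes by less than their SD. By this measure the C1qa-high levels of the 4 genes do not stand clear of background, and their fold changes are differences of measured UMIs.

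Shares of barcodes were also compared at equal depth. After each barcode was thinned to 1000 UMIs, Pf4 was found in 12.4% ± 4.27 of Ly6c2-high C1qa-low and 50.1% ± 1.05 of C1qa-high barcodes. The unthinned shares were 46.3% ± 11 and 89.2% ± 3.59, with median depths of 4821 and 7475 UMIs. Of the 50 T cell marker barcodes (median 4926.5 UMIs), 50% had a Pf4 UMI unthinned and 20% after thinning. For the interferon-induced pair the thinned shares went against the mean levels. Cxcl10 was found in 4.57% of Ly6c2-high and 5.72% of C1qa-high barcodes, although its mean level was 98.5 against 80.3 CPM. Cxcl9 was found in 2.20% and 1.87%, although its mean level was 29.3 against 36.2 CPM, so no order was read from either share. Plasma cell marker UMIs were higher in the Ly6c2-high class (8 genes, 3229 to 14172 CPM) than in the C1qa-high class (543 to 1398 CPM). Leaving out the 188 lymphoid marker barcodes kept the 5 higher calls, and no call of Pf4, Cxcl16, Cxcl1, Cxcl2 or Cxcl3 was lost in any of 22 alternative settings.

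The course over C1qa was then followed in 5 equal groups of barcodes, from the lowest (group 1) to the highest C1qa level (group 5), as a description without a test. Pf4 rose at every step in all 4 mice, its mean going from 124 ± 24.9 CPM (SD, n = 4 mice) in group 1 to 189 ± 49.8, 714 ± 136, 1000 ± 108 and 1250 ± 142 CPM in groups 2 to 5. The mean of Cxcl16 also rose at every step, from 198 ± 37.9 to 881 ± 91.3 CPM, although DEP 13 was lower in group 5 (799 CPM) than in group 4 (854 CPM). The largest step of both was between groups 2 and 3.

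Cxcl2 did not rise to the end. Its mean went from 446 ± 164 CPM in group 1 to 934 ± 202 in group 3, 1061 ± 173 in group 4 and 825 ± 236 in group 5. The highest group was group 4 in DEP 11 and PBS 2, and group 3 in DEP 13 (1112 CPM) and PBS 3 (1088 CPM). It was lower in group 5 (1087, 545, 933 and 733 CPM) than in group 4 (1255, 894, 1160 and 937 CPM) in all 4 mice. Cxcl1 went from 16.0 ± 6.93 to 110 ± 45.6 CPM in group 4 and 89.7 ± 43.9 in group 5, and its highest value was in group 3 in DEP 13 (125 CPM) and in PBS 3 (110 CPM). Cxcl3 was at 50.6 ± 21.6 CPM in group 3 and at 40.2 ± 5.73 CPM in group 5. Cxcl9 lay between 32.1 and 52.9 CPM and Cxcl10 between 68.3 and 94.6 CPM as group means, with SDs of 20.7 to 64.9 CPM, so no order of the groups could be read for them.

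**Figure D3:**
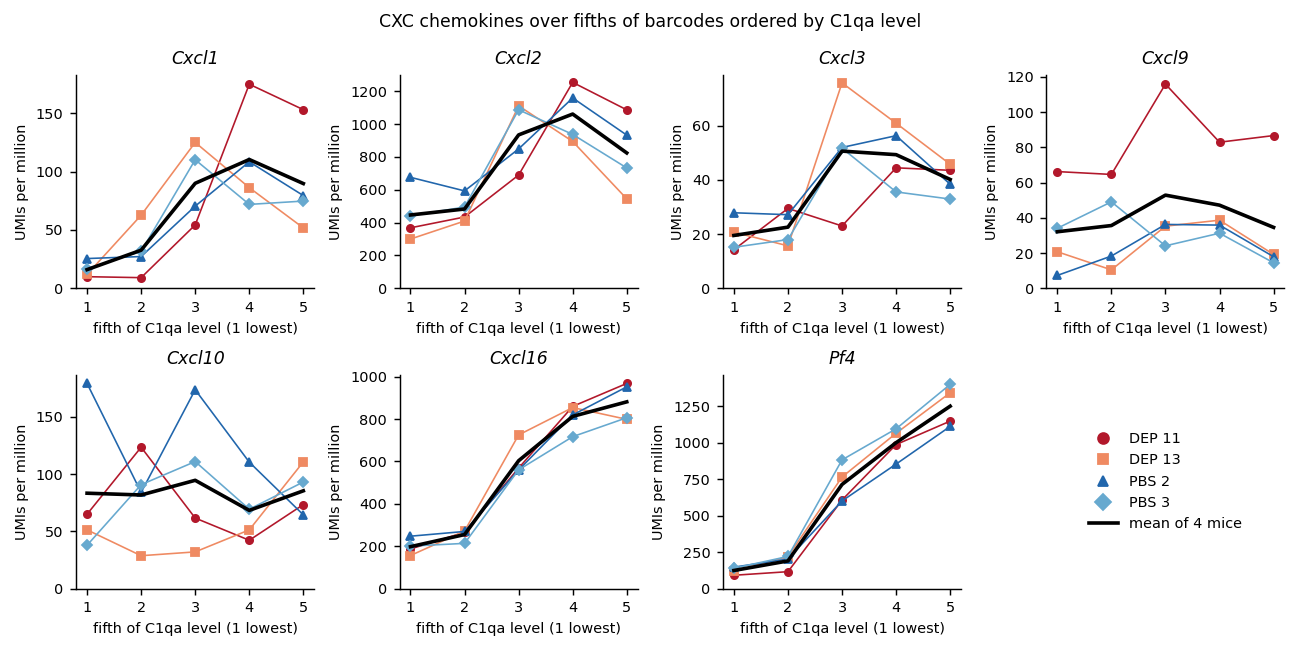
CPM of each member over 5 equal groups of barcodes ordered by C1qa level (group 1 is the lowest), with a thin line for each mouse and a black line for the mean of 4 mice. The means of Pf4 and Cxcl16 rose to group 5 (1250 and 881), and the mean of Cxcl2 was highest in group 4 (1061), with DEP 13 and PBS 3 highest in group 3.

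Over single barcodes some members went together more than others. Correlations were computed within each mouse on log2(UMIs per 10000 + 1) and averaged over 4 mice, for the 10339 genes with a UMI in at least 1% of barcodes. Points are barcodes of 1 library and share its depth and free RNA, so the values are descriptions.

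Cxcl2 and Cxcl3 had a mean r of 0.62 (0.58 to 0.69 over mice), Cxcl1 and Cxcl2 0.41, and Cxcl1 and Cxcl3 0.37. Each of the 3 had the other 2 as its nearest genes of all compared. The next for each was Cd83, an activation marker of antigen-presenting cells (r = 0.24, 0.32 and 0.24 for Cxcl1, Cxcl2 and Cxcl3). Of the 609 barcodes with a Cxcl3 UMI, 97.7% also had a Cxcl2 UMI, against 58.4% of those without. Barcodes with Cxcl3 were deeper (median 7748 against 5617.5 UMIs), but after thinning to 1000 UMIs the shares were 91.4% of 139 and 28.1% of 4632. These are the genes with the kB stretches printed above.

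Cxcl9 and Cxcl10 had a mean r of 0.21 (0.16 to 0.28). The genes nearest to Cxcl9 were Gbp2, a guanylate-binding protein induced by interferon gamma (r = 0.25), and Serpina3g (r = 0.22), before Cxcl10. Cxcl10 had no other gene at 0.2 or above. After thinning, Cxcl10 was found in 23.4% of the 111 barcodes with a Cxcl9 UMI and in 4.72% of the 4660 without. With Cxcl1, Cxcl2 and Cxcl3, the mean r of Cxcl9 was between -0.01 and 0.00, and that of Cxcl10 was 0.10, 0.12 and 0.11, positive in all 4 mice. In the C1qa-high class Cxcl10 had about the same mean r with Cxcl2 (0.15) as with Cxcl9 (0.14).

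Cxcl16 and Pf4 had a mean r of 0.32 over all barcodes (0.28 to 0.35 over mice). The nearest genes were C1qb (0.56), C1qa (0.55) and Ms4a7 (0.55) for Cxcl16, and C1qa (0.52), C1qc (0.52) and Selenop (0.51) for Pf4, all transcripts of mature macrophages. Within the Ly6c2-low C1qa-high class, however, Cxcl16 and Pf4 had a mean r of -0.14, negative in all 4 mice (-0.19 to -0.10). Within the same class Cxcl2 and Cxcl3 remained at 0.66 and Cxcl1 and Cxcl2 at 0.46. In the Ly6c2-high C1qa-low class Cxcl2 and Cxcl3 had a mean r of 0.54 (0.44 to 0.64 over mice), but Cxcl1 had only 0.20 with Cxcl2 (0.02 to 0.33) and 0.14 with Cxcl3 (-0.01 to 0.23).

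**Figure D4:**
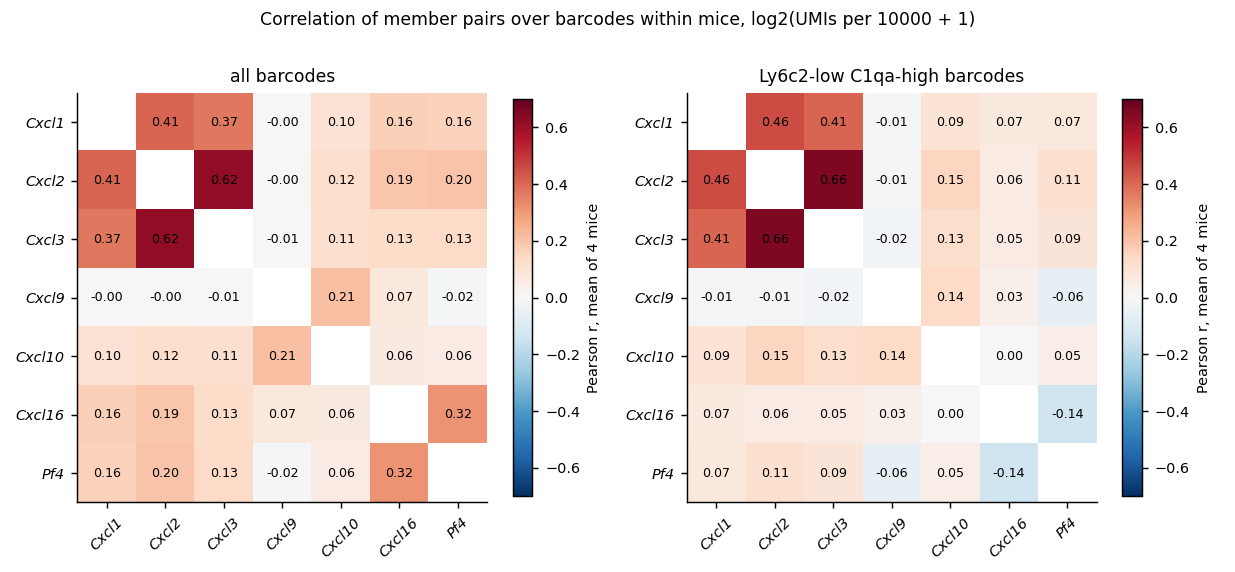
Pearson correlation of each pair of members over barcodes, averaged over 4 mice, in all barcodes (left) and in Ly6c2-low C1qa-high barcodes (right). Cxcl2 with Cxcl3 was at 0.62 and 0.66, Cxcl1 with Cxcl2 at 0.41 and 0.46, and Cxcl16 with Pf4 went from 0.32 to -0.14.

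Apart from Cxcr4, receptors and other ligands of the family were scarce in these libraries. Of 8 receptor genes, Cxcr4 had the highest level (55.8 CPM, mean of 4 mice), followed by Cxcr3 (10.4 CPM) and Cxcr6 (1.68 CPM). Cxcr5 had 19, Ackr3 5 and Cxcr2 2 UMIs in all, and Cxcr1 and Ackr1 had 0. Of the 3 tested between the classes, 2 were higher in the C1qa-high class, Cxcr3 by 1.84 ± 0.29 (log2, edgeR adjusted p = 4.65e-06) and Cxcr4 by 0.32 ± 0.12 (adjusted p = 0.0334), and Cxcr6 was lower (-3.81 ± 0.86, adjusted p = 6.62e-04, 49 UMIs in all). Of 7 other CXC ligands in the table, Cxcl13 was at 12.0 CPM, Cxcl14 at 7.09, Ppbp at 2.87 and Cxcl12 at 1.49 CPM, Cxcl5 had 1 UMI, and Cxcl15 and Cxcl17 had 0. Of the 4 tested between the classes, Cxcl13, Cxcl14 and Ppbp were higher in the C1qa-high class, beside 14.8% of all genes tested. Cxcl13 came mostly from DEP 13 (39.5 CPM, against 0.683 to 5.70 CPM in the other mice). Of the sheddases of Cxcl16, Adam17 was higher in the C1qa-high class by 0.39 ± 0.13 (edgeR adjusted p = 0.0192), and Adam10 was at 23.9 ± 6.58 against 28.4 ± 5.45 CPM (adjusted p = 0.316).

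Genes of the same induction pathways were called in both directions or as lower in the C1qa-high class. Of 22 NF-kB-induced genes tested between the classes, 4 were higher and 11 lower in the C1qa-high class (median log2 fold change -0.15, against 0.03 over all genes). Over all genes tested, 14.8% were higher and 16.5% lower. Ccl4, a chemokine for lymphocytes and monocytes, was higher (0.87 ± 0.08, edgeR adjusted p = 4.85e-10), while Il1b (0.02 ± 0.07, adjusted p = 0.894) and Ccl3 (0.06 ± 0.07, adjusted p = 0.551) did not pass. Of 17 type I interferon response genes tested, 15 were lower and 0 higher (median -1.33). Isg15 was at 185 ± 50.3 CPM in the Ly6c2-high C1qa-low class and 76.4 ± 16.0 CPM in the C1qa-high class. Of 22 interferon-gamma response genes tested, 5 were higher and 7 lower (median -0.10). Psmb8, an immunoproteasome subunit, was lower (-0.25 ± 0.06, edgeR adjusted p = 0.00142), and Fcgr1, which encodes the CD64 of the sort gate, was higher (0.39 ± 0.08, adjusted p = 2.24e-04).

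Whether gavage with DEP changed the chemokines was tested on UMIs summed per mouse (edgeR quasi-likelihood test, 2 DEP against 2 PBS mice). Over all barcodes, 0% of 11097 genes passed an adjusted p of 0.05, and 327 had an unadjusted p under 0.05. No member passed. DESeq2 called 6 genes and the edgeR likelihood ratio test 11, none of them a member. In 28.5% of all genes the DEP and PBS mice did not overlap, against 1 of the 7 members, Cxcl10.

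Cxcl10 averaged 62.3 ± 11.2 CPM (SD, n = 2) with DEP and 95.7 ± 18.9 CPM with PBS alone. The log2 fold change of -0.62 ± 0.18 did not pass (edgeR adjusted p = 0.9997). After thinning, it was found in 4.08% ± 0.96 of barcodes of DEP and 5.78% ± 0.66 of PBS mice (exact permutation p = 0.333, the smallest that 2 against 2 mice can give). Cxcl9 averaged 55.7 ± 38.8 CPM with DEP and 28.2 ± 4.84 CPM with PBS alone (log2 fold change 0.98 ± 0.42, edgeR adjusted p = 0.9997), and DEP 13 lay between the PBS mice. The other 5 members had fitted log2 fold changes between -0.13 and 0.27, with standard errors of 0.14 to 0.24. The summed immediate early and heat shock genes (17 genes), which respond to tissue dissociation, were at 13973 and 12218 CPM in DEP and 17670 and 16111 CPM in PBS mice. Their part in the Cxcl10 values was not tested.

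Within the C1qa-high class, 0.0182% of 11019 genes passed (2 genes) and no member did. The mice did not overlap for 30.9% of genes and for 2 of the 7 members. Cxcl10 was at 62.5 and 66.7 CPM in DEP against 100.5 and 91.7 CPM in PBS mice (log2 fold change -0.57 ± 0.17, edgeR adjusted p = 0.619), and Cxcl9 at 68.3 and 28.5 against 20.5 and 27.4 CPM (1.04 ± 0.30, adjusted p = 0.582). For Cxcl9 the groups were parted by little, between DEP 13 and PBS 3. A single barcode held 46 of the 71 Cxcl9 UMIs of this class in DEP 13, so the lack of overlap rests on it. The fitted Cxcl9 log2 fold change rested on DEP 11: it was 0.27 without DEP 11 and 1.49 without DEP 13. Pf4 differed little between the groups there (1078 ± 17.4 CPM in DEP, 1069 ± 117 in PBS mice).

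Within the Ly6c2-high C1qa-low class, 0% of 10721 genes passed (342 had an unadjusted p under 0.05), and no member did. The mice did not overlap for 29.7% of genes, and both DEP mice lay under both PBS mice for 13.8% of genes and for 2 of the 7 members, Pf4 and Cxcl2. Pf4 was 106 ± 8.47 CPM with DEP and 185 ± 4.91 CPM with PBS alone (log2 fold change -0.82 ± 0.22, edgeR adjusted p = 1). Cxcl2 was 325 ± 3.55 CPM in DEP and 478 ± 180 CPM in PBS mice, the latter spread coming from 605 CPM in PBS 2. Cxcl10 ranged from 39.3 CPM in DEP 13 to 180 CPM in PBS 2, with DEP 11 (91.7) above PBS 3 (82.7). Its log2 fold change of -0.94 ± 0.35 (edgeR adjusted p = 1) was -0.38 without PBS 2 (adjusted p = 0.991), -0.54 without DEP 13 (adjusted p = 0.9995) and -1.70 without DEP 11 (adjusted p = 0.00538).

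The dependence of the DEP effect on the class was tested by an interaction term over the class sums of the 4 mice (edgeR quasi-likelihood test with the mouse as a block). Of 10995 genes, 0.236% passed (26 genes), among them 3 of the 7 members: Pf4, Cxcl2 and Cxcl9. For Pf4 the log2 difference between the C1qa-high and the Ly6c2-high class was 3.25 and 3.45 with DEP against 2.44 and 2.61 with PBS alone. The fitted interaction was 0.85 ± 0.15 (edgeR adjusted p = 1.44e-04). It rests on Ly6c2-high values that lay under those of lymphoid marker barcodes in all 4 mice, so it is a difference of measured UMIs and is not read as a difference in Pf4 expression. Both DEP mice lay above both PBS mice in this log2 difference for 15.6% of all genes tested and for 4 of the 7 members, Cxcl2, Cxcl9, Cxcl16 and Pf4. The interaction of Pf4 kept its call when any 1 mouse was left out (adjusted p 0.00202 to 0.0197) but not in DESeq2, which called 0 genes (78 with an unadjusted p under 0.05, adjusted p = 0.184 for Pf4), nor in edgeR after thinning, which also re-assigned barcodes to the classes (1.27, adjusted p = 1). As single values per mouse, 2 against 2 cannot go below an exact permutation p of 0.333.

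The Pf4 values of DEP and PBS mice were apart in the Ly6c2-high class, where its level was under that of lymphoid marker barcodes. C1qa and C1qb were also lower there in both DEP mice than in both PBS mice. C1qc was at 811 and 418 CPM in DEP and 976 and 673 CPM in PBS mice, so the groups overlapped for it. In the Ly6c2-high class C1qa was 839 ± 232 CPM in DEP and 1243 ± 117 CPM in PBS mice, and C1qb 1074 ± 288 and 1552 ± 9.21 CPM, while Ccr2, a monocyte marker, was 774 ± 71.7 and 653 ± 38.4 CPM. The log2 difference between the classes was 2.52 and 2.93 with DEP against 2.15 and 2.14 with PBS alone for C1qb, and 2.62 and 3.24 against 2.29 and 2.47 for C1qc, and the part of the C1q genes in the Pf4 result was not tested. For Adgre1 and for both marker sums of that class, DEP and PBS mice overlapped. The log2 difference between the classes for Adgre1, which encodes the macrophage marker F4/80, was 1.11 and 1.72 with DEP against 1.27 and 1.33 with PBS alone. In the Ly6c2-high class the 12 resident macrophage markers summed to 17185 and 12240 CPM in DEP and 20914 and 15685 CPM in PBS mice. The 10 monocyte markers summed to 7172 and 7116 CPM in DEP and 7236 and 5891 CPM in PBS mice. With the Ly6c2-high class limited to C1qa group 1, a setting chosen after these values were seen, C1qa was 505 ± 7.69 and 618 ± 14.4 CPM and Pf4 87.8 ± 22.3 and 142 ± 3.40 CPM, and the interaction for Pf4 was 0.72 (edgeR adjusted p = 0.0279).

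The Cxcl2 and Cxcl9 interactions also rest on Ly6c2-high levels not read as above background, so they are differences of measured UMIs. For Cxcl2 the log2 difference between the classes was 1.78 and 1.48 with DEP against 0.71 and 1.46 with PBS alone. The interaction of 0.62 ± 0.13 (edgeR adjusted p = 0.00681) was lost without PBS 2 (0.28, adjusted p = 1) and without DEP 11 (0.46, adjusted p = 0.590). For Cxcl9 the log2 differences were 1.43 and 1.24 with DEP against 0.56 and -1.27 with PBS alone. In the C1qa-high class of DEP 13, a single barcode held 46 of the 71 Cxcl9 UMIs. The interaction of 2.08 ± 0.33 (edgeR adjusted p = 1.90e-05) was lost without PBS 3 (0.81, adjusted p = 1), whose Ly6c2-high class held 110 Cxcl9 UMIs, and without DEP 11 (1.95, adjusted p = 0.472). Cxcl1 (1.27 ± 0.35) and Cxcl16 (0.51 ± 0.14) did not pass, both at an edgeR adjusted p of 0.116, and neither did Cxcl3 (0.14 ± 0.32) nor Cxcl10 (0.30 ± 0.21). Of 21 alternative settings, Cxcl1 passed in 4 (lowest edgeR adjusted p = 6.51e-04, without PBS 3, with 1.76) and Cxcl16 in 3 (lowest adjusted p = 0.0212).

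**Figure D5:**
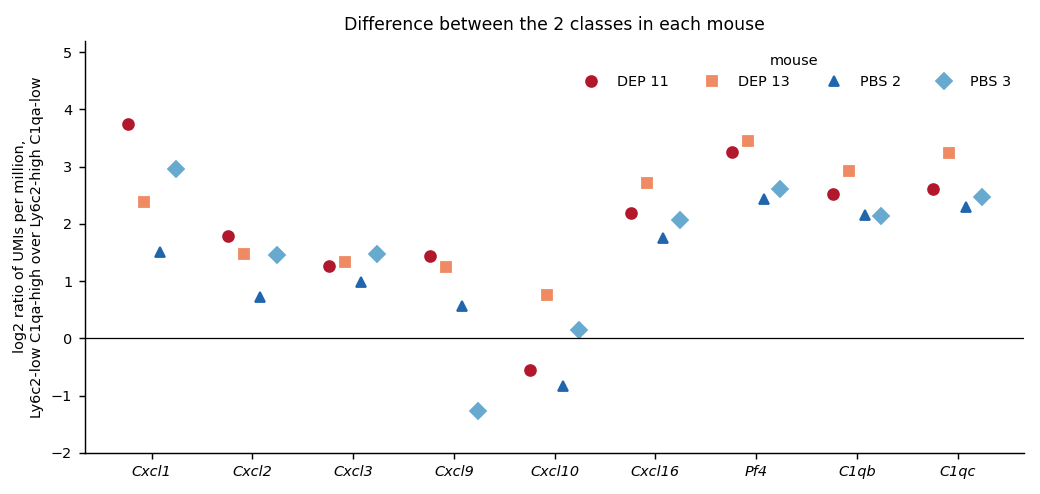
Log2 ratio of CPM in the Ly6c2-low C1qa-high over the Ly6c2-high C1qa-low class for each of 4 mice, for the 7 members and for C1qb and C1qc. Pf4 was at 3.25 and 3.45 in the DEP mice and at 2.44 and 2.61 in the PBS mice, and PBS 3 was below 0 for Cxcl9 (-1.27).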

How the data were processed

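Colon lamina propria cells of 4 mice were profiled with 10x 3′ v2 chemistry, 1 library a mouse. The authors made the deposited table of UMI counts per gene and barcode with Cell Ranger and STAR 2.6.1a on mm10, with no normalization and without downsampling. Barcodes under 1000 UMIs were present and were left out here, and 28416 of 28692 gene IDs had a GENCODE symbol. The members, gene lists and settings were chosen with earlier results of these data known. Named genes were the members, every detected receptor and other ligand, examples from the 3 most abundant genes of each other list, and for each member up to 3 genes with the highest correlation, from 0.2 on.

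Counts were summed per mouse and class and tested with edgeR 4.0.16 (TMM scaling, quasi-likelihood, genes with a mean of at least 1 CPM) in R 4.3.3, with Benjamini-Hochberg adjustment over all genes tested. The class comparison and the interaction had the mouse as a block, because both classes of a mouse come from 1 library. Classes used 2 Ly6c2 UMIs per 10000 UMIs and the median C1qa level of 33.5 per 10000. T, B and plasma cell barcodes were recognised by at least 4, 4 and 6 markers. Doublets marked by scrublet in scanpy 1.11.5 (66 barcodes, 1.38%) were kept. Shares were compared after thinning to 1000 UMIs, with exact permutation tests (two-sided). Intervals of counts (scipy 1.17.1) cover counting error only. Scripts were tested on simulated data. Alternatives included DESeq2 1.42.0, limma 3.58.1 voom, other limits and each mouse left out. Promoter sequences came from RefSeq.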

Additional observations from a re-analysis of the deposited data

Results flagged for a closer look

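The DEP effect differed between the Ly6c2-low C1qa-high and the Ly6c2-high C1qa-low class for 3 members by the interaction test: by 0.62 on the log2 scale for Cxcl2, 2.08 for Cxcl9 and 0.85 for Pf4. Over all 10995 genes tested, 26 (0.236%) passed. The Pf4 value rests on Ly6c2-high levels under those of lymphoid marker barcodes in all 4 mice and is not read as a difference in expression. The Ly6c2-high levels of Cxcl2 and Cxcl9 are not read as above background either. Their values are therefore also differences of measured UMIs. DESeq2 called none of the 3. Of 21 alternative settings, the call held in 19 for Pf4, 15 for Cxcl9 and 11 for Cxcl2.

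The 1614 barcodes under 500 UMIs, which entered no comparison, also held chemokine RNA. As means of the 4 mice, they held 35.2 ± 27.8 CPM of Cxcl1 (SD), 909 ± 217 CPM of Cxcl2, 28.4 ± 15.6 CPM of Cxcl9, 368 ± 52.3 CPM of Cxcl16 and 341 ± 58.2 CPM of Pf4. Cxcl3 was at 151 ± 27.4 CPM there, 3.89 times its level in barcodes with at least 1000 UMIs, from 70 UMIs in all. Cxcl10 was at 147 ± 99.2 CPM, 1.86 times, from 61 UMIs. Such barcodes can hold free RNA or broken cells, which was not tested.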

How the results depend on the processing

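The calls of Cxcl1, Cxcl2, Cxcl3, Cxcl16 and Pf4 between the classes held in each of 22 settings. Of the class comparison's member values, 142 of 154 kept direction and side of the threshold, and of the interaction's 116 of 147. The cause of the changes below was not tested.

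Genes called for DEP against PBS over all barcodes numbered 0, with 11 after thinning each barcode to 1000 UMIs, 119 without a gene filter, 6 by DESeq2, 11 by the likelihood ratio test and 5 to 20 with a mouse left out. In the Ly6c2-high class they numbered 0, with 5 after thinning, 3 at a Ly6c2 limit of 4, 52 in C1qa group 1 (chosen after seeing the data), 53 without a filter, 2 by DESeq2, 10 by the likelihood ratio test and 17 to 42 with a mouse left out. In the C1qa-high class the 2 genes became 1 with barcodes from 500 UMIs, without shared barcodes, with C1q genes summed, DESeq2 size factors, the study's gene filter, DESeq2 or voom. They became 0 without the highest doublet scores, after thinning or with C1qa classes at tertiles, 76 without a filter, 30 by the likelihood ratio test and 27 to 42 with a mouse left out. The 3442 genes of the class comparison became 2135 by DESeq2 and 813 after thinning, which also re-assigned the classes (149, 58, 147 and 171 Ly6c2-high barcodes in DEP 11, DEP 13, PBS 2 and PBS 3, instead of 265, 119, 291 and 327). The 26 of the interaction became 14 from 2000 UMIs, 48 without lymphoid marker barcodes, 13 without the highest doublet scores, 1 after thinning, 7 with the study's filter, 62 without a filter, 0 by DESeq2 and 15 to 33 with a mouse left out.

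Some member log2 values changed sign, among them the -1.04 of Cxcl9 for DEP against PBS in the Ly6c2-high class. For DEP against PBS over all barcodes, thinning gave -0.012 for Cxcl16 and 0.032 for Pf4, and leaving out a mouse gave -0.23 to 0.40 for Cxcl3, -0.044 to 0.20 for Cxcl16 and -0.165 to 0.076 for Pf4. In the Ly6c2-high class Cxcl3 was -0.019 from 2000 UMIs and -0.14 to 0.36 with a mouse left out, and Cxcl9 0.28 at a Ly6c2 limit of 4 and -1.81 to 0.61 with a mouse left out. In the C1qa-high class Cxcl2 was -0.018 after thinning and -0.042 with C1qa classes at tertiles, and Pf4 -0.0089 with C1q genes summed and -0.011 without a filter. With a mouse left out they were -0.11 to 0.18 and -0.14 to 0.17, Cxcl1 -0.14 to 0.62 and Cxcl3 -0.043 to 0.49. Between the classes Cxcl9 was -0.44 to 1.09 with a mouse left out. In the interaction Cxcl3 was -0.65 after thinning, -0.13 with C1qa classes at tertiles, -0.35 in C1qa group 1 and -0.075 to 0.29 with a mouse left out, and Cxcl10 -0.20 to 1.24. Differences in share without thinning were -15.0 percentage points for Cxcl2, -6.68 for Cxcl10 and -9.93 for Pf4, and at 2000 UMIs -8.39 for Cxcl2, -3.11 for Cxcl10 and -5.89 for Pf4. Without a gene filter, edgeR called Cxcl9 for DEP against PBS (0.96, adjusted p = 3.67e-04, in all barcodes), Cxcl10 passed in C1qa group 1 (-1.38, adjusted p = 0.00223), and Cxcl9 passed in the Ly6c2-high class without PBS 2 (-1.81, adjusted p = 0.0326). With a mouse left out, the remaining mouse of its group is assumed to vary like the others.

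Without the replicate block (the mouse), 2384 genes were called between the classes, Cxcl10 lost its call (adjusted p = 0.377) and no other member changed. No paired analysis was possible for DEP against PBS because the DEP and PBS mice share no replicate number. With 2 mice a group, small effects cannot be told from the spread between mice. Cxcl3 and Cxcl9 rest on few UMIs a class, as does Cxcl1 in the Ly6c2-high class.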
